A study of Mus musculus with 4 samples.

Results

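The genes described here are the non-coding hosts of small nucleolar RNAs (snoRNAs), measured in mouse T helper 2 (Th2) cells given dopamine. They were chosen by name, with earlier results of these data known. They are Gas5, Snhg1, Snhg3, Snhg4, Snhg5, Snhg6, Snhg8, Snhg12, Snhg15 and Epb41l4aos. Of these 10 genes, 9 have a row among the 26207 rows of the table used, and Snhg3 was not analysed here. Bulk RNA-seq was done on 4 libraries of mouse Th2 cells, the helper T cells of type 2 immunity, taken from spleen as the labels state. Of these, 2 came from cells given 10 µM dopamine and 2 from cells given phosphate-buffered saline (PBS). The labels give no strain, genotype, age, sex or length of treatment. Nor do they tell whether the libraries of a group stem from different mice or cultures. The p-values therefore reflect the spread between libraries alone, possibly a technical one, and that spread is for the most part pooled over genes. The libraries are called dopamine A, dopamine B, PBS A and PBS B, where A and B name columns and pair nothing. The recovered reads numbered 14167357 in dopamine A and 11492182 in dopamine B, against 5717408 in PBS A and 13241168 in PBS B.

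snoRNAs guide the chemical modification of ribosomal RNA: most of the box C/D class direct ribose methylation and most of the box H/ACA class direct pseudouridylation. In mammals nearly all of them are cut out of introns, so each is made when its host gene is transcribed and spliced. The spliced exons of the non-coding hosts carry no long reading frame, and several of these RNAs are known to be translated briefly and then destroyed by nonsense-mediated decay. Many hosts, coding and non-coding, begin with a terminal oligopyrimidine (TOP) tract, a C followed by a run of pyrimidines at the 5′ end, which they share with the ribosomal protein genes and through which translation follows growth signals. In human T cells, GAS5 is known as a transcript linked to growth arrest.

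The stretch around the transcript start of the hosts is shown first, because the TOP tract, the feature for which these genes are known as a group, lies there. RefSeq promoters of the mouse build GRCm38.p6 were matched to 6 of the 9 hosts with a row. Each line gives 140 bases on the gene's own strand, 90 before the start and 50 from it on. Capitals mark a C followed by at least 4 pyrimidines lying nearest the start, a TATA match that begins 20 to 40 bases upstream, and TGACGTCA, the cAMP response element.
Gas5 (chr1:161035076-161035215, plus strand): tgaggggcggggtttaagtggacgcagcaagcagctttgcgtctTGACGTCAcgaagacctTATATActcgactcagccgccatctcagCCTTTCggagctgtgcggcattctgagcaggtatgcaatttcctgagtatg
Snhg8 (chr3:123508287-123508426, minus strand): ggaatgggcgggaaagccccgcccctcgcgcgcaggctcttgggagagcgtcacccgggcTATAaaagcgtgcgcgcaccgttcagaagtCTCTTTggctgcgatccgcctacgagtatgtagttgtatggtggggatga
Snhg12 (chr4:132308588-132308727, plus strand): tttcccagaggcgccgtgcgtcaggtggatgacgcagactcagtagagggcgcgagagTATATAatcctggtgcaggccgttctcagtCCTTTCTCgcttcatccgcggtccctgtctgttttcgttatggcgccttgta
Snhg5 (chr9:88522848-88522987, minus strand): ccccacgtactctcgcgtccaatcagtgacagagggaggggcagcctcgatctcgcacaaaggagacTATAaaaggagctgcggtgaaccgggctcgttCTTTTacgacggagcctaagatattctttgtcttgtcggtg
Snhg15 (chr11:6528711-6528850, minus strand): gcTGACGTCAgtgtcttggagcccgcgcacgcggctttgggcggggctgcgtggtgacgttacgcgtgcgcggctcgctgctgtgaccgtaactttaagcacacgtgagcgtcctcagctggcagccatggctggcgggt
Snhg1 (chr19:8723397-8723536, plus strand): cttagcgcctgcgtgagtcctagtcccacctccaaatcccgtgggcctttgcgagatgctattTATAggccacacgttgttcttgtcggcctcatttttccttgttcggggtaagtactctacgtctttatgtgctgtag
A TOP-like run began within 5 bases of the annotated start in 3 of the 6 hosts. It was CCTTTC in Gas5, 1 base before the start, CTCTTT in Snhg8, exactly at the start, and CCTTTCTC in Snhg12, 2 bases before it. In Snhg5 the run CTTTT began 9 bases after the start, so that 4 of the 6 hosts had a run within 10 bases. Among all 32851 RefSeq promoters 16.1% held such a run within 5 bases and 29% within 10 bases, and among 72 promoters of ribosomal protein genes 37.5% and 50% did. Annotated starts can miss the used start by some bases, which moves these shares. TATA began 20 to 40 bases upstream in 5 of the 6 hosts, against 5.81% of all promoters and 9.72% of ribosomal protein promoters; the host without it was Snhg15. TGACGTCA, which reads the same on both strands, was present in Gas5 (46 bases upstream) and Snhg15 (88 bases upstream), and in 1.79% of all promoters over the 300 bases from 250 upstream to 50 downstream. RefSeq has a second, more upstream start for Gas5 (chr1:161034511-161034650, plus strand) whose stretch held none of the 3. The hosts are counted here by gene and the shares by promoter. With this second start the 6 hosts have 7 promoters. These matches describe letters and are not measured binding sites or measured starts.

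**Figure D1:**
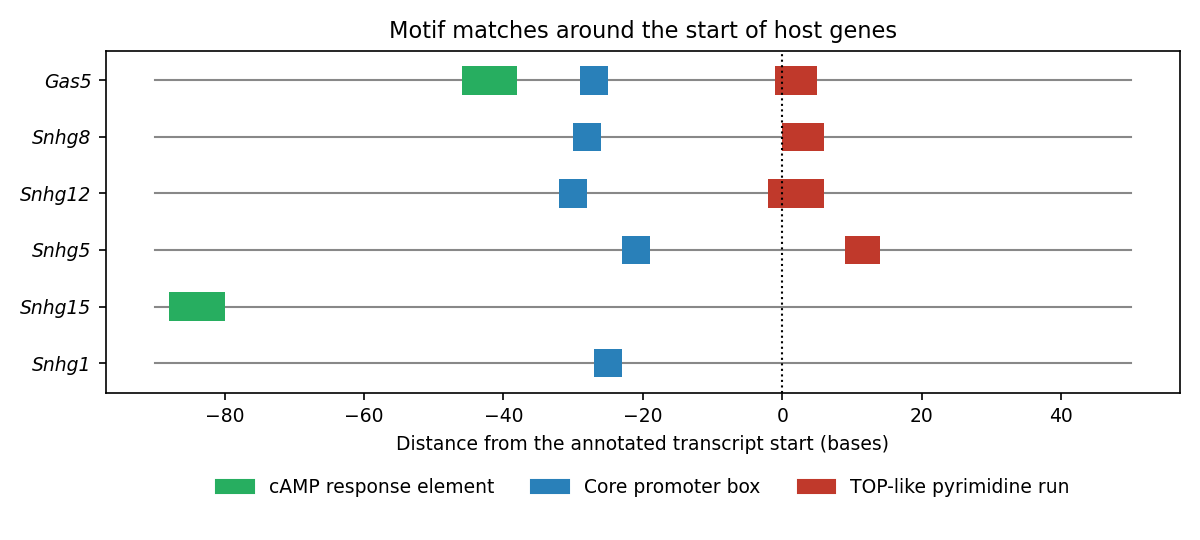
Positions of the motif matches in the RefSeq promoters of 6 host genes (rows), as distance in bases from the annotated transcript start (dotted line); red bars are TOP-like pyrimidine runs, blue bars TATA matches and green bars cAMP response elements. The red bars sit on the start in Gas5, Snhg8 and Snhg12, and blue bars lie upstream of it in 5 of the 6 genes.

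All 9 hosts with a row were more abundant in dopamine cells than in PBS cells, by 1.45-fold for Snhg1 to 2.09-fold for Snhg8, with a median log2 fold change of 0.64 (1.56-fold). In every one of them both dopamine libraries lay above both PBS libraries, as they did in 28.5% of all rows and in 60.8% of rows with a mean of at least 100 normalized counts. All 9 passed limma's test with Benjamini-Hochberg adjustment over 26207 rows at 0.05, where 14.3% of all rows passed as higher and 7% as lower. Because the hosts were chosen with earlier results of these data known, this count describes the group and does not test it. The hosts are well expressed, and among the 8492 rows with a mean of at least 100 normalized counts 39.1% passed as higher, so a large share of expressed genes moved the same way. Values are the authors' normalized read counts (reads divided by a size factor per library), given as mean ± SD of n = 2 libraries a group. Each log2 fold change is given on the scale of log2(value + 1), dopamine minus PBS, with a 95% interval, and adjusted p-values are limma's. In bulk RNA, more cells of a type and more RNA per cell cannot be told apart.

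Gas5, Snhg1, Snhg5 and Snhg6 carry box C/D snoRNAs in their introns. Gas5 (growth arrest specific 5, chromosome 1, 161034601 to 161038539, plus strand), whose RNA accumulates in growth-arrested cells and binds the glucocorticoid receptor in human cells, spans 9 annotated snoRNAs, among them Snord47, Snord78 and Snord80. It had 7562 and 6572 normalized counts in dopamine A and B, against 4473 and 4550 in PBS A and B. Both dopamine libraries were far above both PBS libraries, and the dopamine libraries differed more from each other than the PBS libraries did. Gas5 averaged 7067 ± 700.1 in dopamine cells and 4511 ± 54.8 in PBS cells, a log2 fold change of 0.64 (0.52 to 0.77, adjusted p = 4.15e-11 by limma). Snhg1 (chromosome 19, 8723487 to 8726326), which spans 8 annotated snoRNAs including Snord22, had 1760 and 1600 normalized counts in dopamine A and B, against 1164 and 1155 in PBS A and B. The groups were well apart and the PBS libraries nearly equal. Its log2 fold change was 0.53 (0.38 to 0.69, adjusted p = 6.73e-07 by limma), the smallest of the 9.

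Snhg5 (chromosome 9, 88521052 to 88522897), the host of Snord50a and Snord50b, had 1153 and 1145 normalized counts in dopamine A and B, against 815 and 750.1 in PBS A and B. Here the dopamine libraries were nearly equal and the PBS libraries differed, with no overlap between the groups. The log2 fold change of Snhg5 was 0.55 (0.38 to 0.73, adjusted p = 1.62e-06 by limma). Snhg6 (chromosome 1, 9942025 to 9944118) carries a single annotated snoRNA, Snord87, and had 937 and 814 normalized counts in dopamine A and B, against 457 and 523 in PBS A and B. The libraries of each group were some way apart, but the lower dopamine library stayed above the higher PBS library. Snhg6 averaged 875 ± 87.4 in dopamine cells and 490.1 ± 46.9 in PBS cells, a log2 fold change of 0.84 (0.64 to 1.03, adjusted p = 3.67e-09 by limma).

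Snhg4, Snhg8 and Snhg15 carry box H/ACA snoRNAs. Snhg8 (chromosome 3, 123507552 to 123508336), which holds Snora24 and has the TOP-like run at its annotated start, had 496 and 446 normalized counts in dopamine A and B, against 217 and 231 in PBS A and B. Even the lower dopamine library was far above the PBS libraries, which lay close together. Snhg8 averaged 471 ± 35.6 in dopamine cells and 224 ± 9.86 in PBS cells, and its log2 fold change of 1.06 (0.83 to 1.29, adjusted p = 4.92e-10 by limma) was the largest of the 9. Snhg4 (chromosome 18, 35553410 to 35558316), the host of Snora74a, had 636 and 567 normalized counts in dopamine A and B, against 347 and 348 in PBS A and B. The PBS libraries gave almost the same value and both dopamine libraries lay well above it. Snhg4 had a log2 fold change of 0.79 (0.58 to 1.00, adjusted p = 6.01e-08 by limma). Snhg15 (chromosome 11, 6525591 to 6528760), the host of Snora9, had 538 and 510 normalized counts in dopamine A and B, against 319 and 376 in PBS A and B. The PBS libraries differed more than the dopamine libraries, and the groups did not overlap. Snhg15 had a log2 fold change of 0.59 (0.38 to 0.81, adjusted p = 2.85e-05 by limma).

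Snhg12 spans snoRNAs of both classes, and Epb41l4aos is an antisense neighbour of the cytoskeletal gene Epb41l4a. Snhg12 (chromosome 4, 132308678 to 132311024) holds Snora16a, Snora44, Snora61 and Snord99 and had 611 and 564 normalized counts in dopamine A and B, against 364 and 360.1 in PBS A and B. The PBS libraries were nearly equal and far below the dopamine libraries. Its means were 588 ± 33.1 in dopamine cells and 362 ± 2.42 in PBS cells, and its log2 fold change 0.70 (0.49 to 0.90, adjusted p = 6.84e-07 by limma). Epb41l4aos (chromosome 18, 33794892 to 33795989), with 1 annotated snoRNA in its span, had 299 and 280 normalized counts in dopamine A and B, against 182 and 196 in PBS A and B. It was the least abundant of the hosts, with both dopamine libraries clear of both PBS libraries. Its log2 fold change was 0.61 (0.36 to 0.87, adjusted p = 2.12e-04 by limma). The lowest read number behind any of these values was 107 reads of Epb41l4aos, in PBS A. Box C/D hosts (log2 fold changes 0.53 to 0.84) and box H/ACA hosts (0.59 to 1.06) covered overlapping ranges.

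**Figure D2:**
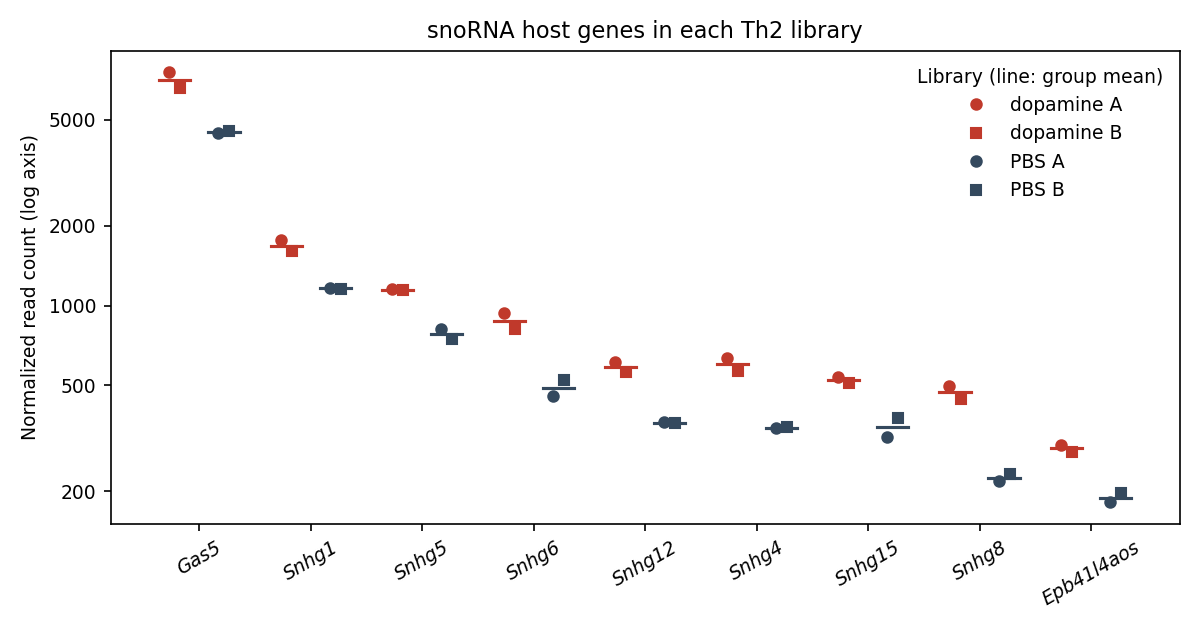
Normalized read count (log axis) of the 9 host genes in each library, dopamine in red left of PBS in dark blue for each gene; circles are libraries A, squares libraries B and bars group means. Each red point lies above each dark blue point of the same gene, and Gas5, at 6572 to 7562 in dopamine cells and 4473 to 4550 in PBS cells, stands above all other hosts.

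Within the dopamine group the libraries stood in the same order in every host. Dopamine A was higher than dopamine B in 9 of the 9 hosts, and in PBS cells PBS B was higher than PBS A in 6 of the 9. The share of all rows in the same order was not computed, so the order is not shown to be particular to the hosts. The largest coefficient of variation within a group was 11.6%. The 9 hosts summed to 13992 and 12497 normalized counts in dopamine A and B, against 8337 and 8491 in PBS A and B. Gas5 alone gave more than any other host, yet without it the sums were 6431 and 5925 in dopamine A and B, against 3865 and 3940 in PBS A and B. The log2 ratio of the group means was 0.65 with Gas5 and 0.66 without it.

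Ratios between hosts, which need no scaling between libraries, showed unequal change. Snhg8 had 65.6 and 67.8 reads for every 1000 Gas5 reads in dopamine A and B, against 48.6 and 50.9 in PBS A and B. Against Snhg1, the host with the smallest change, Snhg8 had 282 and 279 reads per 1000 in dopamine A and B and 187 and 200.3 in PBS A and B. Both ratios were higher in each dopamine library than in each PBS library. Snhg5 had 152 and 174 reads per 1000 Gas5 reads in dopamine A and B, against 182 and 165 in PBS A and B, values that overlapped. These ratios were not tested.

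Per kilobase of the median GENCODE M21 transcript, Gas5 was the most abundant host at 14077 ± 1395 normalized counts in dopamine cells and 8987 ± 109 in PBS cells. Snhg1 followed with 3054 ± 205 in dopamine cells and 2108 ± 10.6 in PBS cells. In dopamine cells the order went on with Snhg6 at 1566 ± 156, Snhg5 at 1471 ± 7.0, Snhg8 at 965 ± 73.0, Snhg15 at 878 ± 34.0, Epb41l4aos at 790 ± 38.0 and Snhg12 at 642 ± 36.2. Of these neighbours, Snhg6 and Snhg5 overlapped in their libraries. In PBS cells it went on with Snhg5 at 1002 ± 59.1, Snhg6 at 877 ± 83.9, Snhg15 at 583 ± 67.3, Epb41l4aos at 516 ± 27.7, Snhg8 at 460 ± 20.2 and Snhg12 at 395 ± 2.65. There Snhg15 and Epb41l4aos were not separated by their spread. Snhg8 stood above Snhg15 and Epb41l4aos in dopamine cells and below both in PBS cells. These levels depend on the transcript length chosen, and no length was taken for Snhg4.

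Many expressed genes shifted upward in these libraries, and the size of the hosts' change depends on how that shift is treated. The median log2 fold change was -0.08 over all 26207 rows and 0.20 over rows with a mean of at least 100. Scaling the libraries on those abundant rows moved the median of all rows to -0.26 and of the abundant rows to 0.00, and left the hosts at 0.34 (Snhg1) to 0.87 (Snhg8), with a median of 0.45. All 9 still passed as higher by limma under that scaling, where 6.9% of all rows did and 12.1% passed as lower. Among abundant rows under the authors' scaling, 98.9% had a smaller log2 fold change than Snhg8, 97.6% than Snhg6, 97.0% than Snhg4 and 88.4% than Snhg1. Correcting for exonic length and GC content left 7 of the 8 hosts with a length higher, where 25.8% of rows were. Epb41l4aos then had a log2 fold change of 0.21 (adjusted p = 0.142 by limma).

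**Figure D3:**
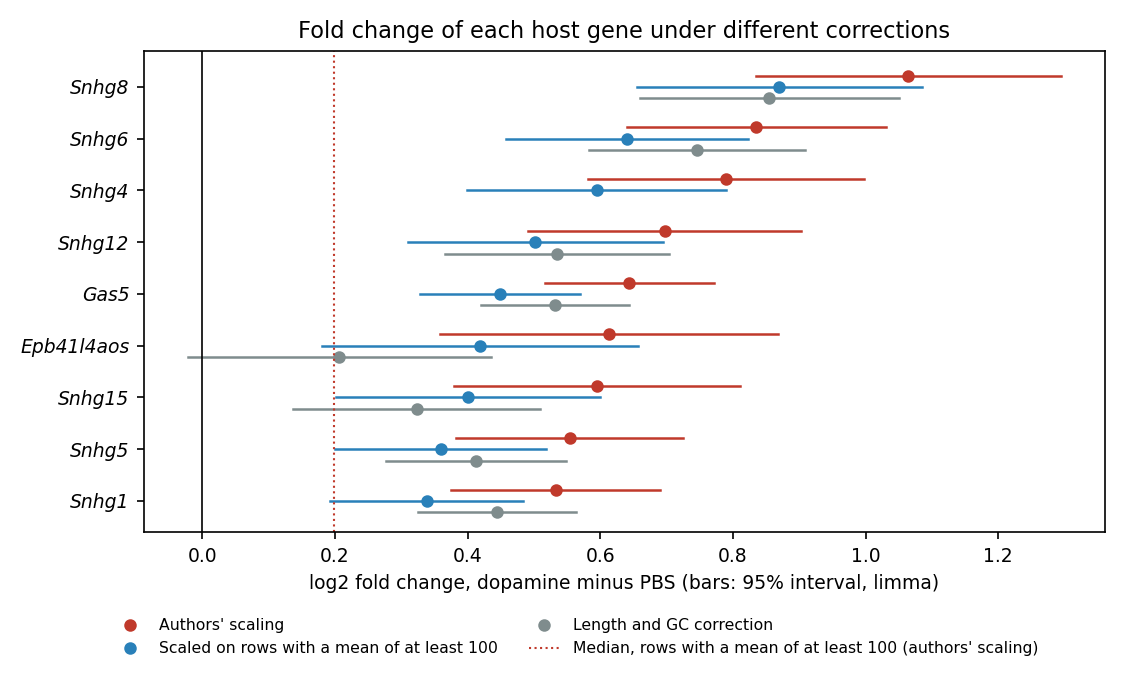
Log2 fold change (dopamine minus PBS, limma, bars give the 95% interval, n = 2 libraries a group) of each host under the authors' scaling (red), scaling on rows with a mean of at least 100 (blue), and correction for length and GC content (grey; none for Snhg4); the dotted line is the median of abundant rows, 0.20. Scaling on abundant rows lowers all 9 and keeps them above 0, and Epb41l4aos with the length and GC correction is the value whose interval reaches 0.

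In the authors' deposited table, all 9 hosts had an adjusted p under 0.05, the highest being 0.00688 for Epb41l4aos, and 19.6% of the 12997 rows with an adjusted p were called higher. edgeR with TMM scaling on the recovered reads also called all 9 higher, where 18.2% of 15329 tested rows were. Without PBS A, the shallowest library, all 9 hosts still passed as higher by limma, where 8.21% of rows did.

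**Figure D4:**
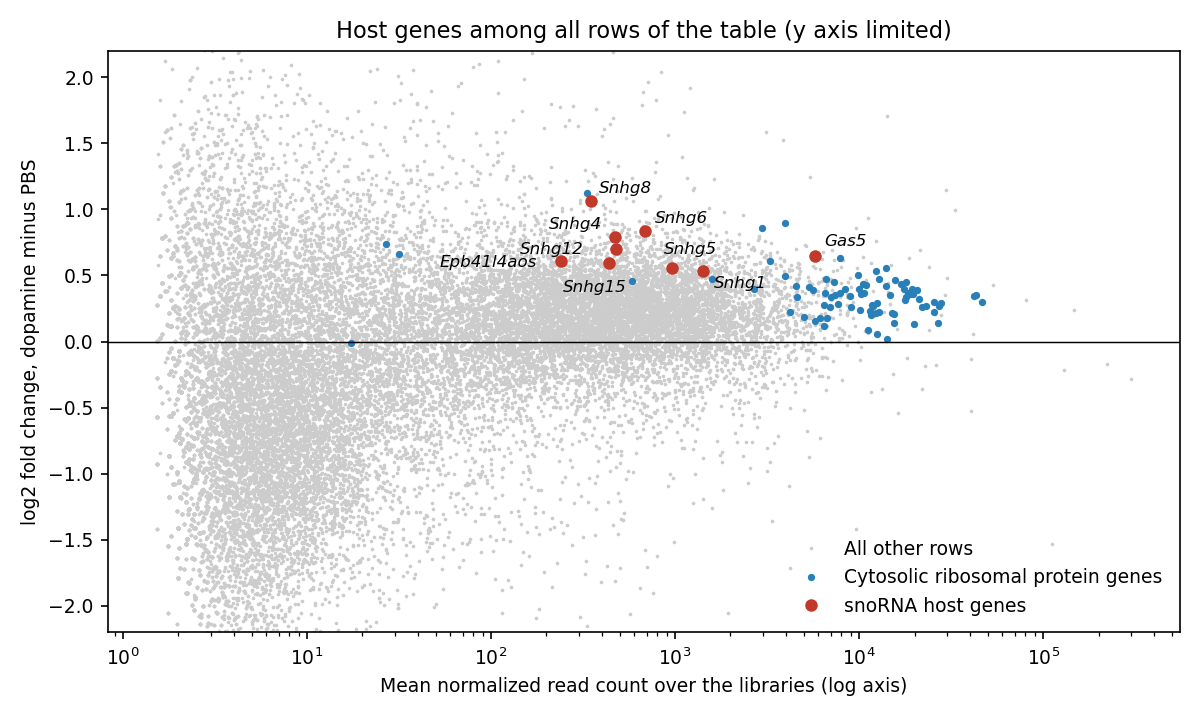
Mean normalized read count over the 4 libraries (log axis) against log2 fold change, dopamine minus PBS, for all rows of the table (grey, y axis limited), the ribosomal protein genes (blue) and the 9 hosts (red). The hosts lie between means of 239 and 5789 and between fold changes of 0.53 and 1.06, in the upper part of the cloud at their level, and most ribosomal protein genes lie lower and further right.

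The snoRNAs inside the hosts were barely sampled. The library kit selects polyadenylated RNA, which mature snoRNAs lack, so these rows do not measure the mature pool. Of the snoRNAs annotated within the 10 hosts, 3 have a row. Gm23639, in Epb41l4aos, had 24.7 and 34.0 normalized counts in dopamine A and B, against 11.9 and 13.8 in PBS A and B. It rose by a log2 fold change of 1.12 (adjusted p = 0.0177 by limma) and rests on 7 reads in PBS A. Snora16a, in Snhg12, averaged 26.8 ± 1.91 in dopamine cells and 15.5 ± 5.14 in PBS cells (adjusted p = 0.107 by limma), and Snord87, in Snhg6, 15.1 ± 6.09 in dopamine cells and 8.08 ± 0.588 in PBS cells (adjusted p = 0.244 by limma). Neither passed the test, and reads of an unspliced host can fall on any of the 3.

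Across all 55 rows named as snoRNAs or small Cajal body RNAs (scaRNAs, which guide modification of spliceosomal RNAs), 8 rose and 0 fell by limma, with a median log2 fold change of 0.56. The share that rose, 14.5%, is close to the 14.3% of all rows. These rows are low, with a median mean of 10.2 normalized counts, which limits how many can pass. Their median log2 fold change stands beside -0.08 over all rows, and was 0.50 in the 22 with a mean of at least 20. Of the 55, 45 had a positive log2 fold change. At an unadjusted p under 0.05 there were 16 in either direction, and the share of all rows was not computed. edgeR with upper-quartile scaling called 7 higher and 0 lower. It tested 15329 rows after a filter, of which 5162 passed, 39% of these as higher. How many of the 55 it kept was not counted. Scarna2, the most abundant, had 2228 ± 94.6 normalized counts in dopamine cells and 1661 ± 29.2 in PBS cells (log2 fold change 0.42, adjusted p = 1.21e-05 by limma). Scarna6 had 227 ± 29.4 in dopamine cells and 135 ± 32.3 in PBS cells (0.76, adjusted p = 1.27e-04), and Snord17 had 282 ± 33.5 in dopamine cells and 201 ± 13.5 in PBS cells (0.48, adjusted p = 0.00409). Scarna13 did not pass, at 648 ± 61.2 in dopamine cells and 623 ± 7.77 in PBS cells.

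Genes that overlap a host, or start within 5 kb of it, did not all share its change. Zbtb37, on the opposite strand, starts 248 bases from Gas5 and overlaps its span. It had 242 and 204 normalized counts in dopamine A and B, against 260 and 282 in PBS A and B. Its dopamine values were below its PBS values, without passing the test (log2 fold change -0.28, adjusted p = 0.108 by limma). Slc3a2, which encodes the heavy chain of an amino acid transporter, starts 118 bases from Snhg1 on the opposite strand and rose, with 3656 ± 269.9 in dopamine cells and 3060 ± 29.7 in PBS cells (0.25, adjusted p = 0.0036). Rcc1, the guanine exchange factor of Ran, spans the place of Snhg3 on the same strand. It rose as well, to 1395 ± 134 in dopamine cells, against 935 ± 73.2 in PBS cells (0.58, adjusted p = 7.38e-07), as did Gm17300, which overlaps Snhg3 on the opposite strand (1.11, adjusted p = 0.00689). Mcmdc2 over Snhg6 averaged 37.0 ± 4.33 in dopamine cells and 32.0 ± 5.18 in PBS cells, and Gm28285 over Snhg4 10.6 ± 1.32 in dopamine cells and 9.14 ± 3.32 in PBS cells, and neither passed. Gm37362 near Gas5 and Gm9369 near Snhg8 had at most 12 reads in any library and did not pass. How strand was handled in counting is not given in the sources used here, and reads from overlapping genes on opposite strands may have been mixed.

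Gene groups related to the hosts are read here against the 39.1% of abundant rows that rose and their median log2 fold change of 0.20. The lists of these groups were also chosen with earlier results of these data known. All 4 core proteins of box H/ACA particles rose, with a median log2 fold change of 0.68. Dkc1, the pseudouridine synthase dyskerin, averaged 3310 ± 40.7 in dopamine cells and 2052 ± 42.9 in PBS cells (0.69, adjusted p = 4.60e-11 by limma), and Nhp2, Gar1 and Nop10 had 0.74, 0.68 and 0.62. All 4 core proteins of box C/D particles rose, with a median of 0.49, led by the scaffold Nop58 at 0.50 (adjusted p = 5.12e-08), and with Nop56 at 0.41, the methyltransferase Fbl at 0.48 and Snu13 at 0.50. These 8 kept their calls when libraries were scaled on abundant rows and without each library in turn. Among assembly factors 9 of 11 rose, including the ATPases Ruvbl1 (0.57) and Ruvbl2 (0.53), the nucleolar chaperone Nolc1 (0.53) and Znhit6 (0.61). Naf1 (-0.0029, adjusted p = 0.993) and Pih1d1 (0.07, adjusted p = 0.764) did not pass, and 5 of 11 rose when scaled on abundant rows.

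Of 7 further non-coding hosts with a row, 3 rose and 0 fell by limma, beside 14.3% of all rows and 39.1% of abundant rows that rose. Neither share is a close match, since Dancr (mean 82.3), Snhg14 (29.7), Snhg9 (11.9) and Snhg11 (11.2) lie below the level of abundant rows. Zfas1 had 1894 and 1979 normalized counts in dopamine A and B, against 1099 and 1188 in PBS A and B, and its log2 fold change was 0.76 (adjusted p = 1.03e-10). Here dopamine B, not dopamine A, was the higher dopamine library. Snhg17 had 0.57 (adjusted p = 2.25e-05) and Dancr 0.88 (adjusted p = 5.59e-04), while Snhg9 at 17.3 in dopamine cells and 6.55 in PBS cells did not pass (adjusted p = 0.0892). The other 3 that did not pass were Snhg20 (0.23), and Snhg14 (-0.08) and Snhg11 (-0.90), whose log2 fold changes were negative. Among protein-coding hosts 35 of 38 rose and 0 fell, with a median log2 fold change of 0.36, beside 39.1% and 0.20 for abundant rows. Examples were Rplp2, an acidic protein of the ribosomal stalk (5127 ± 92.5 in dopamine cells and 2759 ± 370.4 in PBS cells), the chaperonin subunit Cct6a (0.73), the nucleolar protein Ncl (0.60) and the chaperone Hspa8 (0.56). When scaled on abundant rows, 26 of the 38 rose.

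Ribosomal protein genes, which share the TOP tract with many hosts, rose in 71 of 82 cases with a median log2 fold change of 0.35, beside 39.1% and 0.20 for abundant rows. After Rplp2 the smallest p-values were those of Rpl36 (0.86), Rpl13 (0.63) and Rpl9 (0.56). That count was 44 higher and 2 lower when libraries were scaled on abundant rows, and 44 higher without PBS A. TOP translation factors, which include subunits of elongation factor 1, rose in 15 of 18 cases with a median of 0.34, against the same 39.1% and 0.20. Eef1g was at 0.58, Btf3 at 0.49, Npm1 at 0.48 and Eef2 at 0.43, and scaled on abundant rows 10 were higher and 1 lower. The lists share genes with each other and with the protein-coding hosts. For every 1000 reads of ribosomal protein genes there were 12.4 and 10.8 host reads in dopamine A and B, against 9.41 and 8.94 in PBS A and B. Both dopamine values exceeded both PBS values, with means of 11.6 ± 1.17 in dopamine cells and 9.17 ± 0.334 in PBS cells. An exact permutation test of 2 against 2 libraries cannot go below 0.333 when it is 2-sided, so this ratio was not tested.

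**Figure D5:**
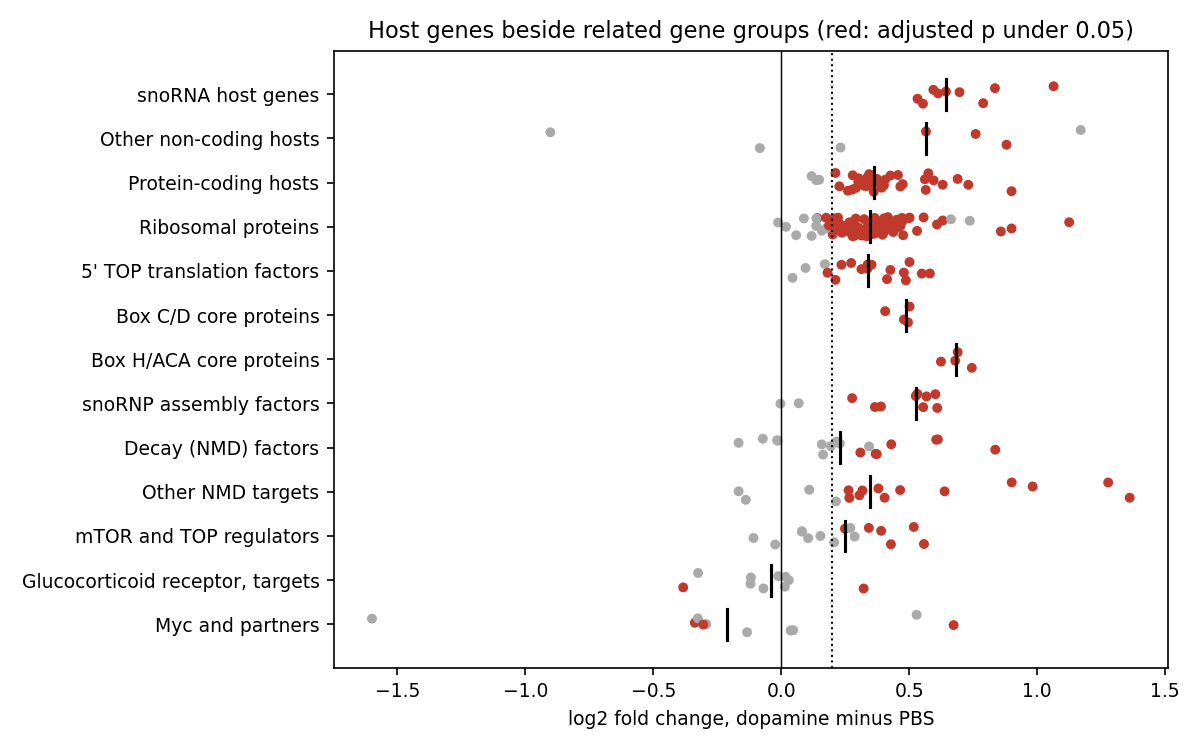
Log2 fold change (dopamine minus PBS, x axis) of the tested genes in each group of genes related to the hosts (rows), red where limma's adjusted p was under 0.05 and grey otherwise; black bars are group medians and the dotted line is the median of rows with a mean of at least 100, 0.20. The medians of the 9 non-coding hosts (0.64) and of the box H/ACA core proteins (0.68) lie to the right of that of the ribosomal protein genes (0.35). Single ribosomal protein genes reach as far as the hosts, up to Rpl22l1 at 1.13. The glucocorticoid receptor group (median -0.04) and the Myc group (median -0.21) are centred near or left of 0.

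Of 17 factors of nonsense-mediated decay, the pathway that removes spliced host RNAs, 7 rose and 0 fell, with a median log2 fold change of 0.23. Both are near the values of abundant rows, 39.1% and 0.20. Those of smallest p were the exon junction proteins Magohb (0.84), Rbm8a (0.61) and Eif4a3 (0.43) and the decay factor Smg5 (0.61). Scaled on abundant rows, 4 were higher and 3 lower. Of 16 transcripts known as targets of this pathway, apart from the hosts, 12 rose and 0 fell, with a median of 0.35, beside 39.1% and 0.20 for abundant rows. Those of smallest p were Gabarapl1 (1.28), Gadd45b (1.36), and the stress-responsive transcription factors Atf3 (0.90) and Atf4 (0.64). The 4 that did not pass were Tbl2 (0.21) and Hnrnpl (0.11), and Ddit3 (-0.14) and Gadd45a (-0.17), whose log2 fold changes were negative. Scaled on abundant rows, 8 of the 16 were higher and 1 lower. Of 15 regulators of TOP translation and of the mTOR pathway, 6 rose and 0 fell, with a median of 0.25, again near the 39.1% and 0.20 of abundant rows. Those of smallest p were Cnbp (0.39), Larp4 (0.43), the translation repressor Eif4ebp1 (0.56) and the TOP-binding protein Larp1 (0.52, adjusted p = 3.91e-06 by limma), and 4 rose when scaled on abundant rows.

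Gas5 RNA is described in human cells as a decoy of the glucocorticoid receptor. The receptor gene Nr3c1 had 1727 and 1740 normalized counts in dopamine A and B, against 2276 and 2246 in PBS A and B. It fell by 0.38 on the log2 scale (adjusted p = 4.81e-05 by limma) with no overlap between groups. Of 10 genes in the list of the receptor and its targets, 1 rose and 1 fell, beside 14.3% and 7% of all rows. The one that rose was Fkbp5 (0.32, adjusted p = 0.00291), a call lost without PBS A, and Per1 (-0.32, adjusted p = 0.216) and Ddit4 (-0.12, adjusted p = 0.372) did not pass. Scaled on abundant rows, 0 of the 10 were higher and 3 lower, where 6.9% of all rows were higher and 12.1% lower. The list's median log2 fold change was then -0.23, beside -0.26 for all rows and 0.00 for abundant rows. Myc, a transcription factor known to drive ribosome production, had 1170 and 1342 normalized counts in dopamine A and B, against 751 and 821 in PBS A and B (0.67, adjusted p = 4.20e-08), and was higher in both dopamine libraries. Its antagonists Mxd1 (-0.34, adjusted p = 0.0276) and Mxi1 (-0.30, adjusted p = 0.0372) fell, calls that were both lost without dopamine A or without PBS B, and 1 of which was lost without dopamine B. Mxd4 (-0.33, adjusted p = 0.0527) did not pass.

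The genes whose profile over the 4 libraries was most like the hosts' mean, by Euclidean distance of centred log2 values among 8215 candidates, were Serpinb9 (distance 0.026), Dtd1 (0.033), Ppib (0.041) and Nol7 (0.045). Among the hosts themselves, Snhg12 was closest to that mean (0.052) and Snhg8 farthest (0.363). The 4 libraries give few points for such a likeness.

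Genes that mark other cells moved with the groups as well. Helper T cell markers summed to 27539 and 28188 normalized counts in dopamine A and B, against 24043 and 25479 in PBS A and B. Of the 9, the type 2 cytokines Il4 (log2 fold change 2.19) and Il13 (1.61) and the receptor genes Cd3d (0.25), Cd3g (0.24) and Trbc2 (0.24) rose. Of all rows 14.3% rose, and of rows with a mean of at least 100 39.1% did. The changes of these receptor genes are near the median of 0.20 of those abundant rows. Trac fell by 0.27 on the log2 scale, where 7% of all rows fell, and Cd3e, Cd4 and Gata3 did not pass. The count higher was 2 of 9 when scaled on abundant rows. Calls of this list also changed with the library left out, and the fall of Trac did not pass in every such fit. The list's median log2 fold change was 0.24, and 0.15 without PBS A to 0.29 without PBS B. Basophil and mast cell markers summed to 824 to 898 in dopamine cells and 2243 to 2633 in PBS cells, with 8 of 9 lower, and 5 of 9 lower without PBS B, beside 7% of all rows. Platelet and red cell markers summed to 433 to 503 in dopamine cells and 1586 to 1860 in PBS cells, with 7 of 8 lower. Myeloid markers summed to 178 to 192 in dopamine cells and 538 to 568 in PBS cells, with 6 of 10 lower. The same 7% of all rows stands beside both counts. The summed basophil, platelet, red cell and myeloid markers were thus lower in both dopamine libraries than in both PBS libraries. B cell markers summed to 410 to 413 in dopamine cells and 162 to 195 in PBS cells, with 4 of 8 higher (14.3% of all rows). CD8 and NK cell markers summed to 500.1 to 522 in dopamine cells and 241 to 275 in PBS cells, with 2 of 6 higher, beside the same 14.3%. Log2 fold changes of the CD8 and NK cell markers ran from -1.16 to 1.96. Of the listed markers, 1 of basophils and mast cells and 4 of platelets and red cells were not analysed here. The part of these cells in the hosts' change was not tested.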

How the data were processed

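Libraries were prepared from total Th2 RNA (TruSeq Stranded mRNA kit, according to the labels' protocols) and grouped by their titles. Per the submitters' processing notes, FastQC 0.11.2, TopHat2 2.0.13, HTSeq 0.6, DESeq2, R 3.6.2 and mm10 were used; the annotation and strand setting used in counting were not given in the sources used here. Each library's column holds a signal, reads divided by the authors' size factor for that library (normalized counts), per the file headers. The authors also deposited a log2 fold change with its standard error, a Wald score, and p-values, adjusted for 12997 rows. Values were whole multiples of a read's worth (100% within a tolerance of 0.01), so reads were recovered; 1 read was worth 0.771, 0.971, 1.70 and 0.766 normalized counts in dopamine A, dopamine B, PBS A and PBS B. The columns carry numbers that differ from the titles', so each was matched to its group only. Within each group the spread exceeded sampling noise (chi-square per degree of freedom 3.98 for dopamine and 2.64 for PBS). In the table, 26 rows had dates as names.

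The test was limma 3.58.1 (R 4.3.3) on log2(value + 1) with a trended prior variance, unfiltered and 2-sided, adjusted over 26207 rows. The prior counted for 42.4 degrees of freedom. Each p-value thus rests mostly on a variance pooled over rows, and little on the spread of that gene's own libraries. This scale understates the change of low genes. Alternatives were a pseudocount of 0.1, a filter at 5 CPM, other scalings, edgeR 4.0.16 and DESeq2 1.42.0 on recovered reads, a replicate block, a length and GC correction on rows with a mean of at least 20, and leaving out each library. Host coordinates and promoters are RefSeq's (GRCm38.p6), and snoRNAs and lengths GENCODE M21's. The hosts and all gene lists, written from memory, were chosen with earlier results of these data known. All hosts, the 4 genes of smallest p per related list, the 4 most abundant snoRNA rows, neighbours within 5 kb and the 4 genes most alike were named.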

Additional observations from a re-analysis of the deposited data

How the results depend on the processing

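Of 134 values of single hosts under 15 alternative settings, 133 kept their direction and their side of the threshold, 0 reversed, and 1 lost its call: Epb41l4aos with the length and GC correction (0.21, adjusted p = 0.142 by limma). All 9 hosts were higher and 0 lower under every setting run except that correction, with 7 of 8. The hosts' median log2 fold change of 0.64 was 0.45 with scaling on abundant rows, 0.54, 0.55 and 0.46 in edgeR with TMM, DESeq2-type and upper-quartile scaling, 0.49 with the length and GC correction, and 0.56 to 0.75 with a library left out. Calls over all rows numbered 5577 by limma and 3261 by DESeq2, and 2914 (without PBS A) to 4299 with a library left out; without dopamine B there were 3276. The share of calls that were higher was 67.1%, and 36.3% with scaling on abundant rows. In the edgeR scalings, run on filtered rows, it was 53.5%, 53.7% and 39.0%. With TMM scaling over all 26207 rows it was 65.5% in edgeR (host median 0.63) and 65% in limma (host median 0.62). Directions of small changes thus depend on the scaling and on the rows kept. The column number as a replicate block gave 6999 calls, 9 hosts higher and a median of 0.64; with 2 pairs, whose differences correlated at 0.214 over abundant rows, the numbers are not shown to pair libraries. Some values of the snoRNA rows and neighbouring genes rest on under 10 reads in a library.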
